A study of Mus musculus with 6 samples.

Results

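The genes described here are 10 members of the p53 pathway: Trp53, Mdm2, Cdkn1a, Ccng1, Plk2, Plk3, Gdf15, Trp53inp1, Zmat3 and Phlda3. They were taken by name from a table of 41972 gene entries, and all 10 were found in it. Of these, 9 had at least 1 count and the same 9 passed the filter on low counts, while Phlda3 had 0 counts in all 6 libraries. The libraries were made from poly(A)-selected RNA of macrophages grown from the marrow of wild-type 6-week-old male C57BL/6 mice, in medium conditioned by L-929 cells as a source of M-CSF. They fall into 3 groups of 2 biological replicates. Cells of the LD-F1_b group and of the LD-F1 group received Aspergillus flavus extracellular vesicles (EVs), 20 µg in each well, for 6 h; A. flavus is a mould. The titles call LD-F1_b and LD-F1 strains, and the sources used here do not give the meaning of the suffix. Cells of the PBS group received PBS for the same 6 h. The comparisons ask how macrophages respond to the EVs and whether the response differs between LD-F1_b and LD-F1. The sources used here do not give how the replicates were separated (mice, cultures or wells), so p-values measure the spread between these samples, which may be technical.

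The transcription factor p53, encoded by Trp53, is held at a low level by the ubiquitin ligase Mdm2, which is itself a p53 target, so that the pair forms a feedback loop. When DNA damage or other stress frees p53 from Mdm2, the protein accumulates with little need for more Trp53 mRNA and raises targets that stop the cell cycle, aid DNA repair or start cell death. Several of these targets, Cdkn1a, Plk2, Plk3 and Gdf15 among them, are also known to be raised by other routes, such as mitogens, cytokines and the integrated stress response with its factors ATF4 and CHOP. In macrophages, p21, the product of Cdkn1a, is known both as a cell cycle inhibitor and as a modulator of inflammatory activation.

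Of the 9 tested members, 5 were higher with LD-F1_b EVs than with PBS and 5 were higher with LD-F1 EVs than with PBS, and they were the same genes: Mdm2, Cdkn1a, Plk2, Plk3 and Gdf15. Over all 12740 tested genes, 6.44% were higher and 4.54% lower with LD-F1_b EVs, and 11.4% were higher and 9.87% lower with LD-F1 EVs (edgeR quasi-likelihood test, Benjamini-Hochberg adjusted p under 0.05). No member was lower in either comparison by that test. At an unadjusted p under 0.05, 0 members were lower with LD-F1_b EVs and 1, Zmat3, was lower with LD-F1 EVs. DESeq2 called 0 lower in both, and limma voom called 0 with LD-F1_b EVs and 1 with LD-F1 EVs. The median log2 fold change of the tested members was 0.35 with LD-F1_b EVs and 0.56 with LD-F1 EVs, beside 0.0055 with LD-F1_b EVs and 0.0057 with LD-F1 EVs over all tested genes. Both comparisons use the same PBS libraries. The members were chosen with earlier results of these data known, so these counts and medians describe the members and do not test the pathway.

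**Figure D1:**
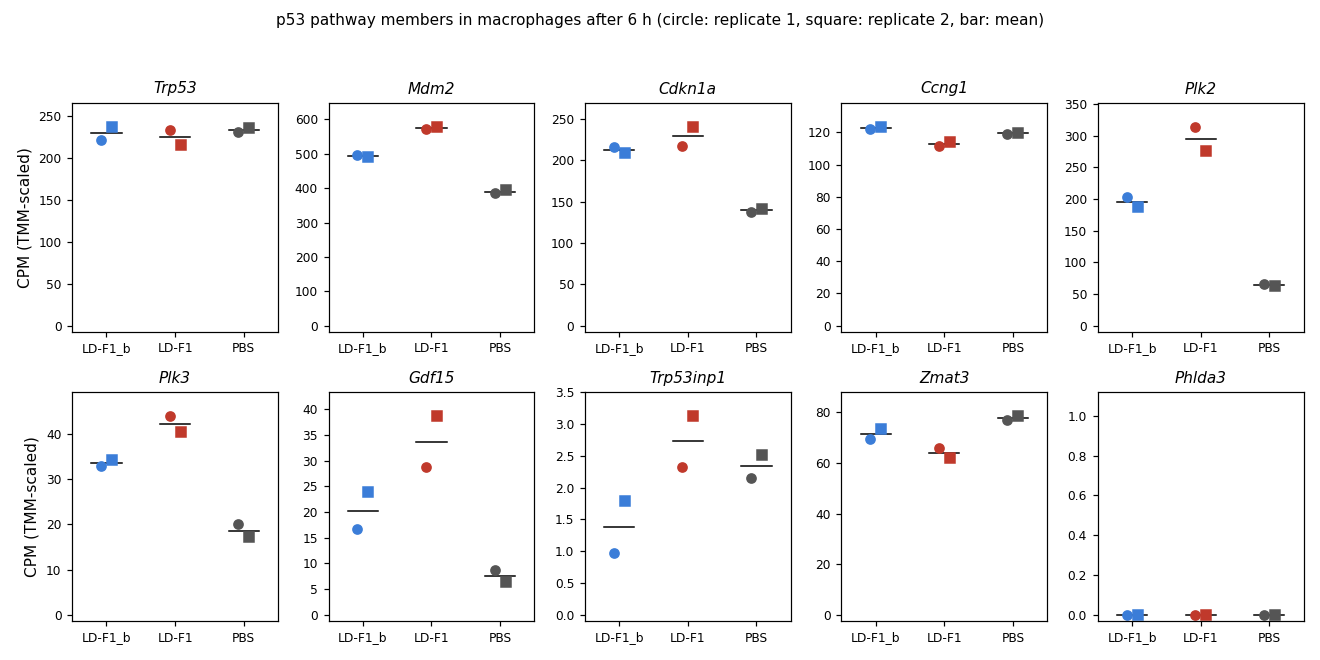
Level of each of the 10 members in every library, in CPM (counts scaled by TMM to a common library size; linear axes from 0); points are libraries and bars are means of 2. For Mdm2, Cdkn1a, Plk2, Plk3 and Gdf15 all 4 EV libraries lie above both PBS libraries, while Trp53 libraries of the 3 groups overlap. For Zmat3 all 4 EV libraries lie below both PBS libraries. The share of all tested genes separated in this way was not computed.

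Per library, total counts ran from 13722215 to 15277997, and 3 counts corresponded to 0.189 to 0.225 CPM. The LD-F1 replicates differed more from each other than those of the other groups did. Pearson's r of log2 CPM between replicates was 0.988 for LD-F1_b, 0.984 for LD-F1 and 0.991 for PBS, and across the tested genes the log2 difference of the LD-F1 replicates followed gene length with a Spearman's rho of 0.332, where LD-F1_b replicates gave 0.0960 and PBS replicates 0.00919; as values across genes these rest on no independent replicates. With a length trend taken out of each library, the same members were called in all 3 comparisons. Macrophage markers were present (Adgre1, Csf1r, Cd68 and Cd14), but Itgam had 0 to 4 counts and Mertk 1 to 10 counts per library. An effect of the annotation used for counting on the Itgam and Mertk entries was not tested. The 7 of 8 macrophage markers in the table summed to 3123 and 3223 CPM in LD-F1_b, 3185 and 3221 CPM in LD-F1 and 2777 and 2789 CPM in PBS libraries, and Cd14 was the 1 of 5 tested markers called higher with either EV. Neutrophil markers (5 of 5 in the table) summed to 0.315 to 0.925 CPM over all libraries, T and B cell markers (5 of 5) to 0.276 to 1.04 CPM and fibroblast markers (4 of 4) to 0 to 0.131 CPM. S100a9, Ly6g, Elane, Cd3e, Ms4a1 and Dcn were at 0 counts in every library. The part of the marker levels in the values of the members was not tested. In RNA of whole cultures, a change in the number of cells that express a gene and a change of RNA per cell cannot be told apart.

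Trp53, which encodes p53 itself, had 221 and 237 CPM in LD-F1_b libraries, 234 and 215 CPM in LD-F1 libraries and 230 and 236 CPM in PBS libraries. The 3 groups overlapped. Its log2 fold change over PBS was -0.02 ± 0.09 (SE) with LD-F1_b EVs (95% interval -0.21 to 0.16, edgeR adjusted p = 0.901) and -0.06 ± 0.09 with LD-F1 EVs (95% interval -0.24 to 0.13, adjusted p = 0.697). In the table's positions, which are those of the C57BL/6NJ strain assembly, Trp53 lies on chromosome 11 from 72152489 to 72164199 on the plus strand.

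Mdm2, the ubiquitin ligase that marks p53 for degradation, had 497 and 492 CPM in LD-F1_b libraries, 572 and 579 CPM in LD-F1 libraries and 385 and 394 CPM in PBS libraries. Both EV groups lay above PBS with no overlap, and the LD-F1_b libraries lay below the LD-F1 libraries. Mdm2 rose 1.27-fold with LD-F1_b EVs (log2 fold change 0.35 ± 0.08, edgeR adjusted p = 0.0144) and 1.48-fold with LD-F1 EVs (0.56 ± 0.08, adjusted p = 2.93e-04). The LD-F1_b call was lost when 1 library of LD-F1_b or of PBS, whichever, was left out, with adjusted p from 0.150 to 0.255 at log2 fold changes of 0.32 to 0.36. Mdm2 lies on chromosome 10 from 124786893 to 124808453 on the minus strand.

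Per kilobase of gene length, Mdm2 over Trp53 was 1.80 and 1.66 in LD-F1_b libraries, 1.96 and 2.16 in LD-F1 libraries and 1.34 and 1.34 in PBS libraries. The EV libraries were all above both PBS libraries. Cdkn1a over Trp53 was 1.78 and 1.61 in LD-F1_b, 1.69 and 2.05 in LD-F1 and 1.09 and 1.09 in PBS libraries. These ratios are given with no test, since an exact permutation test of 2 against 2 libraries cannot go below p = 0.333.

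**Figure D2:**
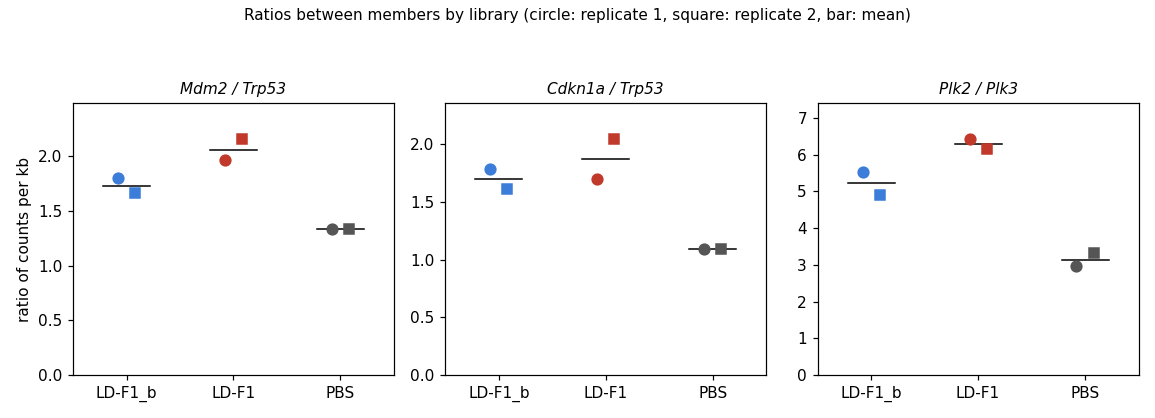
Ratios of counts per kilobase between pairs of members in every library (linear axes from 0; bars are means of 2 libraries). All 3 ratios are lowest in PBS libraries, and Mdm2 over Trp53 is 1.34 in both of them.

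Cdkn1a encodes p21, the inhibitor of cyclin-dependent kinases through which p53 stops the cell cycle. It had 216 and 209 CPM in LD-F1_b libraries, 217 and 241 CPM in LD-F1 libraries and 138 and 141 CPM in PBS libraries. The EV groups lay above PBS and close to each other, with the higher LD-F1_b library just below the lower LD-F1 library. Cdkn1a rose 1.52-fold with LD-F1_b EVs (log2 fold change 0.61 ± 0.09, edgeR adjusted p = 7.83e-04) and 1.64-fold with LD-F1 EVs (0.71 ± 0.09, adjusted p = 1.11e-04). The gene lies on chromosome 17 from 29733095 to 29744217 on the plus strand.

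Ccng1, which encodes cyclin G1, a p53 target that acts on Mdm2 with a protein phosphatase, had 122 and 124 CPM in LD-F1_b, 111 and 114 CPM in LD-F1 and 119 and 119 CPM in PBS libraries. LD-F1_b libraries were the highest and LD-F1 libraries the lowest, within a narrow range. The log2 fold change over PBS was 0.04 ± 0.08 with LD-F1_b EVs (95% interval -0.14 to 0.22, edgeR adjusted p = 0.819) and -0.08 ± 0.08 with LD-F1 EVs (95% interval -0.27 to 0.10, adjusted p = 0.545).

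Plk2, a polo-like kinase known as an early response gene and a regulator of centriole duplication, had with Gdf15 the largest log2 fold changes of the members with either EV. It had 202 and 187 CPM in LD-F1_b libraries, 314 and 276 CPM in LD-F1 libraries and 66.2 and 62.9 CPM in PBS libraries. The 3 groups were separate, with LD-F1 highest and PBS lowest. Plk2 rose 3.02-fold with LD-F1_b EVs (log2 fold change 1.59 ± 0.10, edgeR adjusted p = 1.47e-06) and 4.57-fold with LD-F1 EVs (2.19 ± 0.10, adjusted p = 7.08e-08). By log2 fold change it stood at rank 122 of 12740 with LD-F1_b EVs and at rank 90 with LD-F1 EVs. Plk2 lies on chromosome 13 from 116186460 to 116193378 on the plus strand.

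Plk3, a related kinase of the stress response, had 32.9 and 34.3 CPM in LD-F1_b libraries, 43.9 and 40.3 CPM in LD-F1 libraries and 20.1 and 17.1 CPM in PBS libraries. The order of the groups was that of Plk2, again with no overlap. Plk3 rose 1.81-fold with LD-F1_b EVs (log2 fold change 0.85 ± 0.13, edgeR adjusted p = 0.00104) and 2.27-fold with LD-F1 EVs (1.18 ± 0.13, adjusted p = 3.99e-05). Per kilobase, Plk2 over Plk3 was 5.54 and 4.91 in LD-F1_b, 6.44 and 6.15 in LD-F1 and 2.96 and 3.32 in PBS libraries. Plk3 lies on chromosome 4 from 122639967 to 122645264 on the minus strand and shares 92 bases with Tctex1d4 on the plus strand, which had 6 to 38 counts per library. The sources used here do not give the strand setting of the counting, and no other member overlaps another entry.

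Gdf15, which encodes a secreted stress cytokine of the TGF-beta family, had 16.8 and 23.8 CPM in LD-F1_b libraries, 28.7 and 38.8 CPM in LD-F1 libraries and 8.74 and 6.49 CPM in PBS libraries. The groups did not overlap, although the replicates of each EV group lay far apart. Gdf15 rose 2.67-fold with LD-F1_b EVs (log2 fold change 1.42 ± 0.22, edgeR adjusted p = 0.00153) and 4.43-fold with LD-F1 EVs (2.15 ± 0.22, adjusted p = 2.59e-05). It lies on chromosome 8 from 73587830 to 73590893 on the minus strand.

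The remaining members did not pass the test against PBS. Zmat3, an RNA-binding zinc finger protein induced by p53, had 69.5 and 73.2 CPM in LD-F1_b, 65.7 and 61.8 CPM in LD-F1 and 77.0 and 78.6 CPM in PBS libraries. PBS libraries were the highest and LD-F1 libraries the lowest. The log2 fold change was -0.12 ± 0.09 with LD-F1_b EVs (edgeR adjusted p = 0.469) and -0.29 ± 0.10 with LD-F1 EVs (adjusted p = 0.0510). That LD-F1 value passed the threshold under other scalings, at -0.29 with RLE size factors (adjusted p = 0.0480) and -0.39 with library totals alone (adjusted p = 0.0115), and over all of its alternatives the adjusted p ran from 0.00837 to 0.383, the highest with the length trend taken out (-0.13).

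Trp53inp1, whose product promotes p53 phosphorylation and autophagy, was near the detection limit, with 14 and 26 counts in LD-F1_b libraries, 31 and 44 in LD-F1 libraries and 33 and 40 in PBS libraries. These counts are 0.973 and 1.80 CPM in LD-F1_b, 2.32 and 3.13 CPM in LD-F1 and 2.15 and 2.52 CPM in PBS. The LD-F1_b libraries were the lowest. At this depth the log2 fold changes of -0.75 ± 0.41 with LD-F1_b EVs (95% interval -1.65 to 0.15, edgeR adjusted p = 0.297) and 0.22 ± 0.39 with LD-F1 EVs (-0.62 to 1.07, adjusted p = 0.740) left a change in either direction undetermined. Phlda3, an inhibitor of Akt signalling, had 0 counts in all 6 libraries, which allows up to 0.209 CPM per LD-F1_b library, 0.225 CPM per LD-F1 library and 0.196 CPM per PBS library, for counting error only. Whether the annotation used for counting affects this entry was not tested, so the 0 counts do not show that Phlda3 is not expressed.

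**Figure D3:**
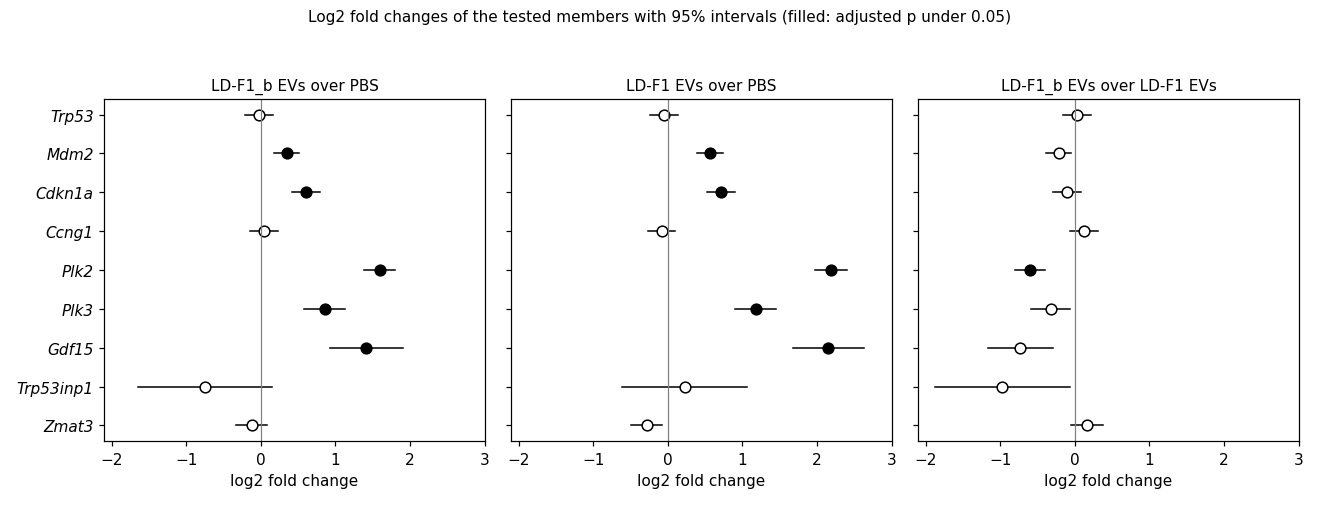
Log2 fold change of the 9 tested members in each comparison with its 95% interval; filled points have an adjusted p under 0.05 over all 12740 tested genes. Against PBS the same 5 members are filled for both EVs, and between the EVs the filled point is Plk2 at -0.60.

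Per kilobase, the order of the members differed between groups. In LD-F1_b the order was Mdm2 (97.5 CPM per kb), Cdkn1a (95.7), Plk2 (69.5), Trp53 (56.5), Ccng1 (34.9), Plk3 (13.3), Gdf15 (11.0), Zmat3 (6.24) and Trp53inp1 (0.214), with overlap of Mdm2 and Cdkn1a. In LD-F1 it was Mdm2 (114 CPM per kb), Plk2 (105), Cdkn1a (103), Trp53 (55.3), Ccng1 (32.1), Gdf15 (18.2), Plk3 (16.7), Zmat3 (5.58) and Trp53inp1 (0.421), with overlap of Plk2 and Cdkn1a and of Gdf15 and Plk3. In PBS it was Mdm2 (76.8 CPM per kb), Cdkn1a (62.8), Trp53 (57.5), Ccng1 (34.0), Plk2 (23.0), Plk3 (7.37), Zmat3 (6.81), Gdf15 (4.11) and Trp53inp1 (0.361), and of these neighbours Plk3 and Zmat3 alone overlapped between libraries. Plk2 thus stood above Trp53 and Ccng1 in the libraries of either EV and below both in PBS libraries.

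Between the EVs, Plk2 was the 1 member called. It averaged 195 ± 10.9 CPM in LD-F1_b libraries and 295 ± 27.2 CPM in LD-F1 libraries (SD, n = 2 each), a ratio of 0.660 (log2 fold change -0.60 ± 0.09, edgeR adjusted p = 0.0118). In this comparison 0.408% of all tested genes (52) were lower and 0.0157% (2) were higher. The Plk2 call was lost when the LD-F1_b and LD-F1 libraries were fitted alone (adjusted p = 0.0503) and without either LD-F1_b library (0.244 and 0.474), with log2 fold changes of -0.69 to -0.50 over all alternatives. No member was higher with LD-F1_b EVs than with LD-F1 EVs by edgeR, by DESeq2, by limma voom or at an unadjusted p under 0.05 (0 of 9 in each).

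Other members that stood lower in both LD-F1_b libraries than in both LD-F1 libraries did not pass the test. Gdf15 averaged 20.3 ± 5.01 CPM in LD-F1_b and 33.7 ± 7.11 CPM in LD-F1 (log2 fold change -0.73 ± 0.20, 95% interval -1.17 to -0.30, edgeR adjusted p = 0.219). Plk3 averaged 33.6 ± 0.976 CPM in LD-F1_b and 42.1 ± 2.54 CPM in LD-F1 (-0.33 ± 0.12, -0.59 to -0.06, adjusted p = 0.446). Mdm2 averaged 495 ± 3.31 CPM in LD-F1_b and 576 ± 5.28 CPM in LD-F1 (-0.22 ± 0.08, -0.39 to -0.05, adjusted p = 0.408). Trp53inp1 averaged 1.38 ± 0.582 CPM in LD-F1_b and 2.73 ± 0.570 CPM in LD-F1 (-0.97 ± 0.41, -1.88 to -0.07, adjusted p = 0.516), the lowest log2 fold change of the members in this comparison and the one with the widest interval. Cdkn1a differed by less, at 213 ± 4.93 CPM in LD-F1_b and 229 ± 17.0 CPM in LD-F1 (-0.11 ± 0.09, -0.29 to 0.08, adjusted p = 0.816). Zmat3 (0.16 ± 0.10, adjusted p = 0.700) and Ccng1 (0.12 ± 0.08, adjusted p = 0.758) stood higher in both LD-F1_b libraries and did not pass either. The Trp53 libraries of the EVs overlapped (0.03 ± 0.09, adjusted p = 0.956). The share of all tested genes with no overlap between the EVs was not computed. Without LD-F1 replicate 1, Gdf15 (-0.94, adjusted p = 0.00382) and Mdm2 (-0.23, adjusted p = 0.0232) were called as well. Gdf15 was also called with no filter on low counts (-0.73, adjusted p = 7.56e-04).

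Promoter sequence was read for the members from a RefSeq-based table of the build GRCm38.p6, which is not the build of the counts. It held 10 windows for 8 members and none for Trp53inp1 and Zmat3. Each window spans 250 bases before a start site and 50 after it. Both strands were searched for a p53 half-site, a CArG box (the site of serum response factor) and a kappa-B site, each by its name, and for TGATGCAA (the composite site of CHOP and ATF4) and TGACGTCA (the cyclic AMP response element). The 4 stretches below are the 250 bases before the start of Mdm2, Cdkn1a and Plk2, which rose with both EVs, and of Ccng1, which did not pass the test, with the matches in capitals. They are printed 5′ to 3′ on the strand of the gene: Mdm2 at chr10:117710759-117711008 on the minus strand, Cdkn1a at chr17:29090729-29090978 on the plus strand before its upstream alternative start, Ccng1 at chr11:40755287-40755536 on the minus strand and Plk2 at chr13:110394794-110395043 on the plus strand.
Mdm2: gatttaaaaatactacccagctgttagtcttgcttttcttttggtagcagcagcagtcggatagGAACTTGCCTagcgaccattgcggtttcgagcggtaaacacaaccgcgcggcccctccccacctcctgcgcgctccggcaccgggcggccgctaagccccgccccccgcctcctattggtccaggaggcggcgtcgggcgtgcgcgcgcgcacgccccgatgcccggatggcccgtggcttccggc
Cdkn1a: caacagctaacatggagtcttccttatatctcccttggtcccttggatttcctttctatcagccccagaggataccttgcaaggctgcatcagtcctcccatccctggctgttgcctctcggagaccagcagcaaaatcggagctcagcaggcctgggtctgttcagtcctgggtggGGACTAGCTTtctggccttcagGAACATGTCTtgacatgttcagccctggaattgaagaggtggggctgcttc
Ccng1: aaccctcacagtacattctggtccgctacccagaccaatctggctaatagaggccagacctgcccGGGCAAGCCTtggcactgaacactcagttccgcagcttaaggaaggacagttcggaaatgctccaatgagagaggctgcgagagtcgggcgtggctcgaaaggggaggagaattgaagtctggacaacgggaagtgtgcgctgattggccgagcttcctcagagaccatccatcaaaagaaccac
Plk2: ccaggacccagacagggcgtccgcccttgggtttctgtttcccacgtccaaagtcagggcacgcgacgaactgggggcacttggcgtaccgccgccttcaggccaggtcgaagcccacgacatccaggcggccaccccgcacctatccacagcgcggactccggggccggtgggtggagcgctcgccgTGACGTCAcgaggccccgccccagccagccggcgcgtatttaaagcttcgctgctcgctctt

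Capitals mark p53 half-sites in Mdm2, Cdkn1a and Ccng1 and TGACGTCA in Plk2. The Cdkn1a stretch holds 2 half-sites, GGACTAGCTT and GAACATGTCT, whose first bases lie 73 and 51 bases before the start. The Mdm2 half-site GAACTTGCCT begins 186 bases before the start and the Ccng1 half-site GGGCAAGCCT 185 bases before it. The Plk2 match begins 62 bases before the start. Trp53 itself held the half-site GGACTTGCCC 75 bases before its start and the kappa-B match GGGACTTTCC 5 bases before it. The second Cdkn1a window, the 2 windows of Gdf15 and those of Plk3 and Phlda3 held none of the 5 motifs. Among all 32851 windows of this length, 8.36% held a p53 half-site, 1.63% a CArG box, 4.51% a kappa-B site, 0.895% TGATGCAA and 1.79% TGACGTCA. A half-site was thus found both before members that rose (Mdm2, Cdkn1a) and before members that were not called (Trp53, Ccng1). No window of Plk2, Plk3 or Gdf15, which also rose, held a half-site. Sequence outside the windows was not searched. These matches describe the letters of the windows and show no binding.

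Of all tested genes, 6.44% were higher and 4.54% lower with LD-F1_b EVs, and 11.4% were higher and 9.87% lower with LD-F1 EVs. Genes that control p53 were mostly not called, and those that were called were mostly lower. Of 13 tested of 14 listed (Cdkn2a had 0 counts), 0 were higher and 2 lower with LD-F1_b EVs, and 1 was higher and 3 lower with LD-F1 EVs, with median log2 fold changes of -0.18 with LD-F1_b EVs and -0.16 with LD-F1 EVs. Over the alternatives, the number lower ran from 0 to 5 with LD-F1_b EVs and from 1 to 7 with LD-F1 EVs. The 1 higher, named for its count after its values were seen, was Cop1, a ubiquitin ligase of p53 (0.34 ± 0.09, edgeR adjusted p = 0.0162 with LD-F1 EVs), a call lost with scaling by library totals and without either PBS library (up to 0.243). Beside the 0 higher with LD-F1_b EVs, 2 genes (Cop1 and Kat5) were higher at an unadjusted p under 0.05, and DESeq2 and limma voom called 0. Chek1, a checkpoint kinase that relays DNA damage, had 19.8 and 19.1 CPM in LD-F1_b, 17.6 and 18.9 CPM in LD-F1 and 30.7 and 31.0 CPM in PBS libraries. It fell with both EVs (log2 fold change -0.66 ± 0.13, edgeR adjusted p = 0.00512, with LD-F1_b EVs and -0.75 ± 0.13, adjusted p = 0.00113, with LD-F1 EVs). Chek2, another checkpoint kinase, fell by 0.91 ± 0.19 with LD-F1_b EVs (adjusted p = 0.00784) and by 0.78 ± 0.19 with LD-F1 EVs (adjusted p = 0.0101) on the log2 scale. Atm, the kinase that senses double-strand breaks, fell with LD-F1 EVs (-0.81 ± 0.20, adjusted p = 0.0212) while its LD-F1 libraries lay far apart, at 71.0 and 41.5 CPM, against 96.3 and 100 CPM in PBS. It stood at -0.71 ± 0.20 with LD-F1_b EVs (adjusted p = 0.0558), which passed the threshold under 10 of 15 alternatives. The LD-F1_b calls of Chek1 and Chek2 were lost when 1 library of LD-F1_b or of PBS, whichever, was left out (adjusted p up to 0.0805 and 0.110), the LD-F1 call of Chek2 without PBS replicate 2 (adjusted p up to 0.117), and that of Atm without either PBS library (adjusted p up to 0.102).

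Other p53 targets went in both directions, as did all tested genes. The shares of all tested genes were 6.44% higher and 4.54% lower with LD-F1_b EVs, and 11.4% higher and 9.87% lower with LD-F1 EVs. Over 3 lists of further targets with 26 tested genes, 6 were higher, 3 lower and 17 not called with LD-F1_b EVs, and 5 were higher, 4 lower and 17 not called with LD-F1 EVs, with median log2 fold changes of -0.02 with LD-F1_b EVs and -0.06 with LD-F1 EVs. Over the alternatives, 2 to 6 were higher and 0 to 5 lower with LD-F1_b EVs, with 0 lower without LD-F1_b replicate 1 or either PBS library and 2 higher without LD-F1_b replicate 2. With LD-F1 EVs, 4 to 7 were higher and 3 to 7 lower. None of the 26 was called between the EVs by edgeR, DESeq2 or limma voom. In that comparison edgeR called 0.408% of all tested genes lower and 0.0157% higher. At an unadjusted p under 0.05 by edgeR, 2 were higher (Gtse1 and Ddb2) and 2 lower (Btg2 and Sesn2) with LD-F1_b EVs. The share of all tested genes at that unadjusted p was not computed. The absence of calls did not hold without LD-F1 replicate 1 or without LD-F1 replicate 2.

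Among targets of arrest and DNA repair (8 tested of 9), Btg2, an antiproliferative protein, had 9.32 and 10.2 CPM in LD-F1_b, 14.7 and 15.1 CPM in LD-F1 and 3.20 and 4.54 CPM in PBS libraries. It rose with both EVs (log2 fold change 1.33 ± 0.22, edgeR adjusted p = 0.00183, with LD-F1_b EVs and 1.94 ± 0.21, adjusted p = 4.31e-05, with LD-F1 EVs). Gadd45a, a growth arrest and DNA damage gene, rose too (1.59 ± 0.27, adjusted p = 0.00256, with LD-F1_b EVs and 1.95 ± 0.27, adjusted p = 2.58e-04, with LD-F1 EVs). Its LD-F1_b call was lost without LD-F1_b replicate 2 (adjusted p = 0.0582). Gtse1, a negative regulator of p53 expressed in the G2 phase, fell with both (-0.63 ± 0.12, adjusted p = 0.00458, with LD-F1_b EVs and -0.91 ± 0.12, adjusted p = 1.88e-04, with LD-F1 EVs). The LD-F1_b call of Gtse1 was lost without LD-F1_b replicate 1 or either PBS library (adjusted p up to 0.0885). Polk, a DNA polymerase for bypass of lesions, was called higher with LD-F1_b EVs (0.52 ± 0.13, adjusted p = 0.0256). With LD-F1 EVs it stood at 0.35 ± 0.13 (adjusted p = 0.0845). Its call was lost with scaling by library totals and when 1 library of LD-F1_b or of PBS, whichever, was left out (adjusted p up to 0.214). Ddb2, which recognises UV damage, was called lower with LD-F1 EVs (-1.78 ± 0.47, adjusted p = 0.0183) at 0.525 and 0.782 CPM against 2.09 and 2.46 CPM in PBS, and the call was lost without either PBS library (adjusted p up to 0.144).

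Among targets of cell death (10 tested of 11, Perp at 0 counts), Fas, the death receptor, had 7.02 and 7.19 CPM in LD-F1_b, 10.6 and 7.54 CPM in LD-F1 and 3.26 and 2.52 CPM in PBS libraries. It rose with both EVs (log2 fold change 1.296 ± 0.258, edgeR adjusted p = 0.00679, with LD-F1_b EVs and 1.644 ± 0.255, adjusted p = 6.37e-04, with LD-F1 EVs). Bbc3, which encodes the BH3 protein PUMA, rose by about the same with both (0.76 ± 0.16, adjusted p = 0.0105, with LD-F1_b EVs and 0.76 ± 0.16, adjusted p = 0.00594, with LD-F1 EVs). Pidd1, a death domain protein that activates caspase-2, fell with both (-0.67 ± 0.17, adjusted p = 0.0226, with LD-F1_b EVs and -1.04 ± 0.17, adjusted p = 9.64e-04, with LD-F1 EVs). The LD-F1_b call of Fas was lost without either LD-F1_b library or PBS replicate 2, and that of Bbc3 without LD-F1_b replicate 2 or either PBS library. That of Pidd1 was lost when 1 library of LD-F1_b or of PBS, whichever, was left out. The LD-F1 call of Bbc3 was lost without PBS replicate 2. The log2 fold changes kept their sign in these fits. Each of these fits leaves 1 library in a group, so dependence of the calls on a particular library was not tested. Bax, the pore-forming effector of apoptosis, which was chosen after its values were seen, was not called (-0.04 ± 0.11, adjusted p = 0.885, with LD-F1_b EVs and 0.09 ± 0.11, adjusted p = 0.616, with LD-F1 EVs).

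Among targets of metabolism and other roles (8 tested of 10), Sesn2 and Sesn1, stress proteins of the sestrin family that restrain mTORC1, went opposite ways. Sesn2 had 51.7 and 50.0 CPM in LD-F1_b, 72.5 and 62.6 CPM in LD-F1 and 14.4 and 15.3 CPM in PBS libraries. Sesn1 had 7.65 and 9.40 CPM in LD-F1_b, 7.04 and 8.04 CPM in LD-F1 and 15.9 and 15.1 CPM in PBS libraries. Sesn2, which is also a known ATF4 target, rose with both EVs (log2 fold change 1.77 ± 0.12, edgeR adjusted p = 3.65e-06, with LD-F1_b EVs and 2.18 ± 0.12, adjusted p = 2.83e-07, with LD-F1 EVs). Sesn1 fell with both (-0.86 ± 0.18, adjusted p = 0.00889, with LD-F1_b EVs and -1.04 ± 0.18, adjusted p = 0.00158, with LD-F1 EVs). The LD-F1_b call of Sesn1 was lost without LD-F1_b replicate 1 or either PBS library (adjusted p up to 0.127).

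**Figure D4:**
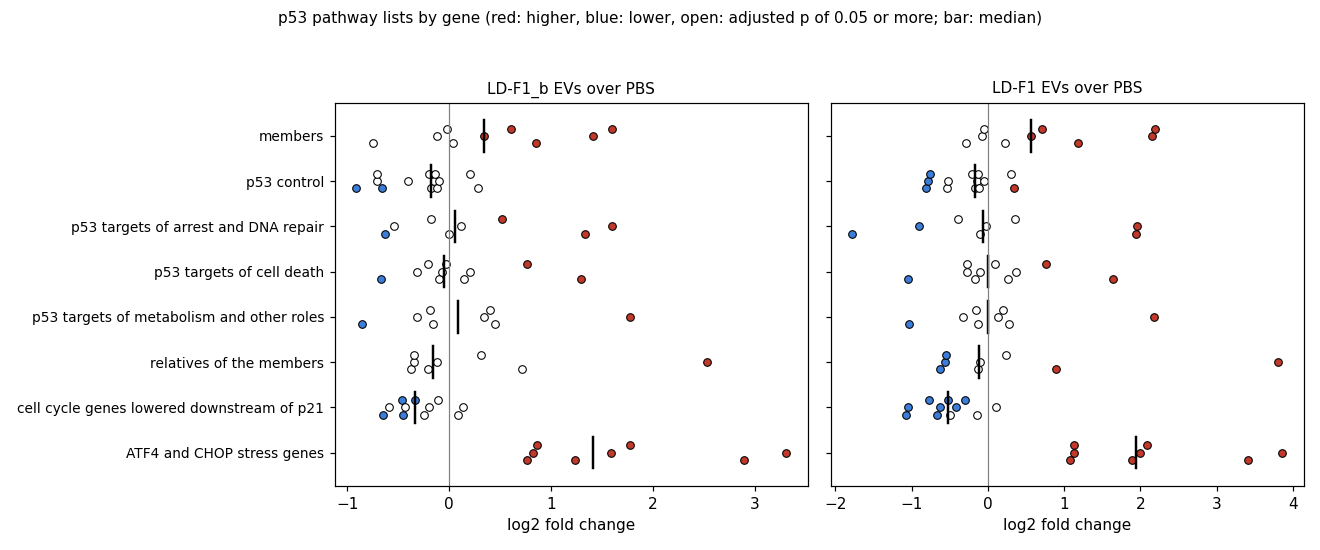
Log2 fold change over PBS of each tested gene of the members and of 7 related lists, with the bar at the list's median; the vertical spread within a line has no meaning. The p53 control and p53 target lists spread to both sides of 0, the 8 ATF4 and CHOP genes are all higher with either EV, and no gene of the cell cycle list is called higher.

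With LD-F1_b EVs 6.44% of all tested genes were higher and 4.54% lower, and with LD-F1 EVs 11.4% were higher and 9.87% lower. Relatives of the members did not all move as the members did. Of 8 tested of 14 listed, 1 was higher and 0 lower with LD-F1_b EVs (Plk1 and Plk4, 2 genes, were lower at an unadjusted p under 0.05, 0 by DESeq2 and 0 by limma voom), and 2 were higher and 3 lower with LD-F1 EVs, with median log2 fold changes of -0.16 with LD-F1_b EVs and -0.12 with LD-F1 EVs. Over the alternatives, 0 to 2 were lower with LD-F1_b EVs and 0 to 3 with LD-F1 EVs. Phlda1, a relative of the undetected Phlda3, had 7.44 and 6.70 CPM in LD-F1_b, 16.3 and 18.1 CPM in LD-F1 and 1.24 and 1.20 CPM in PBS libraries. It rose with both EVs (2.53 ± 0.25, edgeR adjusted p = 4.85e-05, with LD-F1_b EVs and 3.81 ± 0.23, adjusted p = 5.39e-07, with LD-F1 EVs) and was lower with LD-F1_b EVs than with LD-F1 EVs (-1.28 ± 0.19, adjusted p = 0.00901), a call lost without either LD-F1_b library (up to 0.244). Plk1, the polo-like kinase of mitosis, fell with LD-F1 EVs (-0.56 ± 0.11, adjusted p = 0.00282), as did Plk4, the kinase of centriole duplication (-0.56 ± 0.13, adjusted p = 0.00878), in contrast to Plk2 and Plk3. With LD-F1_b EVs, Plk1 stood at -0.35 ± 0.11 (adjusted p = 0.0560) and Plk4 at -0.35 ± 0.13 (adjusted p = 0.114), which passed the threshold under 6 of 15 alternatives for Plk1 (adjusted p down to 0.00364) and 3 of 15 for Plk4. Without PBS replicate 2 the LD-F1 calls of Plk1 and Plk4 were lost (adjusted p up to 0.0641 and 0.0891), and that of Plk4 was also lost without PBS replicate 1. Ccng2, the sister of Ccng1, was called higher with LD-F1 EVs (0.89 ± 0.23, adjusted p = 0.0165) but not without PBS replicate 2. With LD-F1_b EVs it stood at 0.71 ± 0.23 (adjusted p = 0.0754), which passed the threshold under 5 of 15 alternatives. Cdkn2c, an inhibitor of CDK4 and CDK6, was called lower with LD-F1 EVs (-0.63 ± 0.18, adjusted p = 0.0287). That call was lost in the fit of the compared groups alone and without any 1 library other than LD-F1 replicate 2. With LD-F1_b EVs Cdkn2c stood at -0.38 ± 0.18 (adjusted p = 0.219).

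The share of all tested genes called lower was 4.54% with LD-F1_b EVs and 9.87% with LD-F1 EVs. Among 11 cell cycle genes known to be lowered downstream of p21, 4 fell with LD-F1_b EVs and 8 with LD-F1 EVs, and none rose. The median log2 fold changes of these genes were -0.33 with LD-F1_b EVs and -0.53 with LD-F1 EVs. Over the alternatives, 1 to 7 fell with LD-F1_b EVs and 5 to 9 with LD-F1 EVs. By edgeR, none (0 of 11) was higher at an unadjusted p under 0.05, and DESeq2 and limma voom called 0 higher in these comparisons. The part of Cdkn1a in the levels of this list was not tested. Mybl2, a transcription factor of the cell cycle, had 95.8 and 103 CPM in LD-F1_b, 75.7 and 74.9 CPM in LD-F1 and 160 and 153 CPM in PBS libraries. It fell with both EVs (log2 fold change -0.65 ± 0.09, edgeR adjusted p = 5.43e-04, with LD-F1_b EVs and -1.05 ± 0.09, adjusted p = 6.41e-06, with LD-F1 EVs). Foxm1, which drives mitotic genes, fell as well (-0.46 ± 0.11, adjusted p = 0.0178, with LD-F1_b EVs and -0.78 ± 0.11, adjusted p = 3.17e-04, with LD-F1 EVs), but its LD-F1_b call was lost when 1 library of LD-F1_b or of PBS, whichever, was left out (up to 0.290). The other 2 genes that fell with LD-F1_b EVs, named for this count after their values were seen, were Ccna2, cyclin A2 (-0.46 ± 0.10, adjusted p = 0.0113), and Top2a, a topoisomerase (-0.33 ± 0.08, adjusted p = 0.0228). Their LD-F1_b calls were lost on leaving out 1 library of LD-F1_b or PBS (up to 0.178 and 0.265), that of Top2a also with the length trend taken out. Mki67, the proliferation marker, fell with LD-F1 EVs (-1.08 ± 0.22, adjusted p = 0.0127), a call lost without either PBS library (up to 0.0624), and stood at -0.59 ± 0.22 with LD-F1_b EVs (adjusted p = 0.145), which passed the threshold under 6 of 15 alternatives (adjusted p down to 0.00138).

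All 8 genes of the ATF4 and CHOP stress list were higher with both EVs, with median log2 fold changes of 1.41 with LD-F1_b EVs and 1.94 with LD-F1 EVs. The share of all tested genes called higher was 6.44% with LD-F1_b EVs and 11.4% with LD-F1 EVs. Chac1, a glutathione-degrading enzyme, had 20.0 and 23.8 CPM in LD-F1_b, 33.1 and 31.2 CPM in LD-F1 and 1.83 and 2.58 CPM in PBS libraries. It rose by 3.31 ± 0.20 (edgeR adjusted p = 1.47e-06) with LD-F1_b EVs and by 3.86 ± 0.20 (adjusted p = 2.05e-07) with LD-F1 EVs on the log2 scale. Trib3, a pseudokinase, rose by 2.90 ± 0.15 (adjusted p = 6.68e-07) with LD-F1_b EVs and by 3.41 ± 0.15 (adjusted p = 7.34e-08) with LD-F1 EVs. Ddit3, which encodes CHOP, rose by 1.78 ± 0.15 (adjusted p = 1.45e-05) with LD-F1_b EVs and by 2.09 ± 0.15 (adjusted p = 1.55e-06) with LD-F1 EVs. None of the 8 was called between the EVs by edgeR, DESeq2 or limma voom, while 7 were lower with LD-F1_b EVs at an unadjusted p under 0.05. Between the EVs, edgeR called 0.408% of all tested genes lower and 0.0157% higher. The share of all tested genes at an unadjusted p under 0.05 was not computed. Without LD-F1 replicate 1, 6 of the 8 were called lower with LD-F1_b EVs, and 1 was called without LD-F1 replicate 2 and 1 with no filter on low counts. The part of this list in the values of the members was not tested.

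The genes whose levels followed those of Plk2 and Cdkn1a most closely were named by the root mean square difference of centred log2 CPM over the 6 libraries, among 9059 genes of at least 5 CPM. For Plk2 they were Il1rn, the interleukin-1 receptor antagonist (0.0759), Csf1, the growth factor M-CSF (0.0844), and Ccl3, a chemokine (0.0865). For Cdkn1a they were Bcl10, a signalling adaptor (0.0226), Cd53, a leukocyte tetraspanin (0.0386), and Pip5k1b, a lipid kinase (0.0389). These distances describe 6 libraries in 3 groups and are given with no test.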

How the data were processed

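RNA-seq counts of 6 libraries were used, 2 each of LD-F1_b, LD-F1 and PBS. The deposited values are raw whole-number counts of reads per gene. The submitters' processing notes name featureCounts 1.5.0-p3, StringTie 1.3.3b, HISAT2 2.0.5, fastp and the build GRCm39. The gene identifiers are those of the C57BL/6NJ assembly, and positions are given as in the table. The sources used here do not give the strand setting or how multi-mapped reads were counted. The table has 0 entries that name no gene. Gene length, used for levels per kilobase, is the deposited column in bases.

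Genes were filtered by filterByExpr (12740 kept, 99.9% of the counts), scaled by TMM (factors 0.965 to 1.04) and tested in 1 fit of all 6 libraries with edgeR 4.0.16 in R 4.3.3 (robust quasi-likelihood F test, 3 residual degrees of freedom), with Benjamini-Hochberg adjustment over all tested genes in a comparison and a threshold of 0.05. "Rose", "fell", "higher" and "lower" are used of a gene only where it passed. The exceptions are where levels of libraries are ordered and where an unadjusted p or another fit is named. CPM are counts scaled by TMM and library size. Standard errors and 95% intervals were computed back from the F test. The scripts were tested on simulated data. Floors of 3 counts cover counting error only.

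The members and lists were chosen with earlier results of these data known. Named list genes are called genes whose log2 fold change against PBS was 0.5 or more in size, at most 3 highest and 3 lowest per list and comparison. Of the listed genes, Sfn and Lyz2 were not matched in the table, and Cop1 is listed there as Rfwd2. A T and B cell marker was left out and is not reported here. Promoters are from RefSeq. Alternatives were other scalings, no filter, only the groups compared, no robust estimation, DESeq2 1.42.0, limma voom (limma 3.58.1), a length trend removed, a replicate block and each library left out.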

Additional observations from a re-analysis of the deposited data

Results flagged for a closer look

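Plk2 and Phlda1 are given here because their change over PBS differed between the EVs by the direct test. For Plk2 the log2 fold change of LD-F1_b EVs over LD-F1 EVs was -0.60 (edgeR adjusted p = 0.0118), with both LD-F1_b libraries below both LD-F1 libraries. The Plk2 call was lost with the LD-F1_b and LD-F1 libraries fitted alone and without either LD-F1_b library. Its log2 fold change was -0.69 to -0.50 over all alternatives. For Phlda1, a relative of the members, it was -1.28 (edgeR adjusted p = 0.00901), also with both LD-F1_b libraries below both LD-F1 libraries. The Phlda1 call was lost without either LD-F1_b library (adjusted p = 0.182 and 0.244) and held under the other alternatives. In this comparison 52 of 12740 tested genes were lower.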

How the results depend on the processing

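With 2 libraries per group, calls changed with the settings and with single libraries left out. A fit without 1 library leaves 1 in its group, so the sizes of these changes cannot be compared. Over PBS, Cdkn1a, Plk2, Plk3 and Gdf15 were called with both EVs under all 15 alternatives, and Mdm2 with LD-F1 EVs. The count of all genes called with LD-F1_b EVs over PBS was 1398, against 3098 when the 2 groups were fitted alone and 401 to 3142 with a library left out. With LD-F1 EVs over PBS it was 2707, and 1213 to 4497 with a library left out. Between the EVs it was 54, against 185 with no filter, 33 with the 2 groups fitted alone, 97 with DESeq2, 106 with the length trend removed and 0 to 1152 with a library left out. Members lower with LD-F1 EVs than with PBS were 0, but 1 (Zmat3) with RLE size factors, library totals alone or limma voom, and 0 to 1 with a library left out. Members lower with LD-F1_b EVs than with LD-F1 EVs were 1, but 2 with no filter, 0 with the 2 groups fitted alone and 0 to 3 with a library left out. The cause of these shifts was not tested. Of the calls over PBS, 58.7% were higher with LD-F1_b EVs and 53.5% with LD-F1 EVs, against 41.7% and 33.6% with scaling by library totals alone, which moved the median of all genes to -0.07 and -0.10. Without LD-F1_b replicate 1, 76.8% of the LD-F1_b calls were higher. Between the EVs the share higher was 3.70%, against 14.2% with the length trend removed, 15.5% with DESeq2, 25.9% with no filter, 25.6% without LD-F1 replicate 2 and 52.3% of 1152 calls without LD-F1 replicate 1. Deviations of same-numbered replicates were little correlated across genes (-0.02 to 0.08), which cannot tell whether the numbers pair the samples. The fit with a replicate block gave 1357, 2706 and 52 calls and the same members as called. When a library was left out, the lone sample of its group was assumed to vary like the other groups.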
